A study of Mus musculus with 12 samples.

Results

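The mitosis genes described here are 54 protein-coding genes of the spindle, the kinetochore, the mitotic kinases, the anaphase machinery and cytokinesis. They were picked by name, with earlier results of these data known, and all 54 symbols were present among the 38087 gene models of the deposited count table. All 54 were among the 22384 gene models that passed the filter on low counts. The RNA-seq libraries came from sciatic nerves of mice, in 4 groups of 3, and the labels call each library a biological replicate. Control mice were Dhh-Cre-:Tfebflox/flox;Tfe3+, so that they carried both floxed Tfeb alleles without Cre and kept Tfe3. The mice called dKO were Dhh-Cre+:Tfebflox/flox;Tfe3KO, so that Tfe3 was lost in every cell and Tfeb only where Dhh-Cre, a driver of the Schwann cell lineage, had been active. The floxed Tfeb alleles were shared by all 4 groups. Injured nerve was the part beyond a transection at the sciatic notch, collected 5 days after the cut without its most proximal end, and intact nerve was the uncut opposite side, stripped of its epineurium. No age was given. Levels are given as CPM, counts per 1000000 of the library total after scaling by TMM, a method that balances the libraries against each other. Changes are on the log2 scale, each with its standard error (SE), from edgeR's quasi-likelihood test with Benjamini-Hochberg adjustment over all 22384 models, and a gene is said to have risen or fallen only where its adjusted p was under 0.05. The p-values measure the spread between these libraries.

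Cells that divide make the proteins of mitosis in a late wave, after DNA replication, and destroy many of them again at the end of division. Cyclins A and B activate Cdk1, Polo-like and Aurora kinases build the spindle, the kinetochore ties chromosomes to it, the checkpoint holds anaphase until all are attached, and the anaphase promoting complex then removes securin and the cyclins. In an adult nerve Schwann cells rarely divide. After a cut, Schwann cells of the part cut off from its neurons re-enter the cell cycle, and other cells such as macrophages and fibroblasts can divide too. Tfeb and Tfe3 are related transcription factors best known for the genes of lysosomes and autophagy.

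The libraries held between 15430999 and 35845371 counts. Reads over Tfeb and Tfe3 were present in every dKO library, and neither gene passed the test between genotypes (adjusted p between 0.126 and 0.883). Whole-gene counts cannot show a deleted exon, so they do not check the labels. At equal depth 159 to 347 olfactory receptor models had a read in control replicate 4 and the 3 dKO replicates at 5 days, against 45 to 64 in the other 8 libraries. These 4 libraries are called the second library set below. Control replicate 1 at 5 days was the 1 library read as female, from more reads of Xist than of Y-linked genes. The 8 Schwann cell markers summed to between 41698 and 53173 CPM in intact nerve and between 3195 and 4629 CPM at 5 days, so that every library held Schwann cell RNA.

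In intact control nerve most mitosis genes stood at low levels, and 3 of the 54 had under 10 reads in every library. The mean level was under 1 CPM for 22 of the 54 and between 1 and 10 CPM for 28, and 4 stood above 10 CPM. In intact dKO nerve the corresponding numbers were 25, 25 and 4. The 54 genes together summed to between 165 and 184 CPM in the 3 intact control libraries and between 150 and 166 CPM in the 3 intact dKO libraries. Those above 10 CPM in intact control nerve were Pttg1, which encodes securin, the inhibitor of the cohesin-cutting protease separase, Anln, which encodes the contractile-ring protein anillin, Kif20a, a kinesin of the central spindle, and Incenp, the scaffold of the chromosomal passenger complex. Per kilobase of exon, Pttg1 stood at 16.2 ± 1.96 CPM per kb (SD, n = 3) in intact control nerve and Kif20a, next in order, at 3.34 ± 0.33. The median over the 54 genes was 0.293 CPM per kb. Kif20a, Anln and Incenp, with values of 3.34 ± 0.33, 3.25 ± 1.15 and 2.50 ± 0.17, followed each other in the order, and the ranges of Kif20a and Anln over 1 SD overlapped.

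The genes of this group share features of their promoters, and sequences are printed because the genes moved together after injury. Promoter windows of 300 bases, 250 before and 50 after the annotated start, were available from RefSeq (build GRCm38.p6) for 42 of the 54 genes. The cell cycle genes homology region, or CHR, is a short element through which the DREAM and MuvB complexes act on late cell cycle genes, often beside CCAAT boxes, which the factor NF-Y binds. The letters TTTGAA or TTTAAA, searched on both strands, occurred in the window of 36 of the 42 genes (85.7%) and in 27.6% of all 32851 windows. CCAAT, searched on both strands, occurred in 30 of the 42 (71.4%) and in 37.4% of all windows. At least 2 CCAAT matches were present in 22 of the 42 genes and in 11.7% of all windows. CACGTG, the E-box core that Tfeb and Tfe3 can bind, occurred in 3 of the 42 genes (7.14%) and in 7.15% of all windows, and the longer TCACGTG, which contains it, in 2 of the 42, Anln and Espl1, and in 3.77%. The median GC content was 58.7% in the windows of the 42 genes and 52.7% in all windows. A match is a description of letters, not a bound site. Printed are 10 stretches, those of the genes followed throughout that had a window (Aurkb and Foxm1 had none). Each is a stretch of 120 bases upstream of the gene span given below, picked for the most CHR matches and then the most CCAAT matches. Its matches are thus not to be read as a share. The windows were set by the RefSeq start, which for Ccnb1 and Cdk1 lies inside that span. Counted from that start, a TTTAAA at -42 and a CCAAT at -67 of Ccnb1 fall inside the span and are not printed. The same holds for a TTTGAA at -15 of Cdk1. They run 5′ to 3′ on the strand of the gene. Capitals mark TTTGAA or TTTAAA and CCAAT on either strand, so that TTCAAA and ATTGG are the same letters read on the other strand. They lie at chr7:135716448-135716567 for Mki67 (minus strand), chr11:99024259-99024378 for Top2a (minus), chr10:69352939-69353058 for Cdk1 (minus), chr7:122159315-122159434 for Plk1 (plus), chr1:189688121-189688240 for Cenpf (minus) chr19:37376262-37376381 for Kif11 (plus), chr13:100786571-100786690 for Ccnb1 (minus), chr2:127831866-127831985 for Bub1 (minus), chr11:117849017-117849136 for Birc5 (plus) and chr2:163054515-163054634 for Mybl2 (plus).
Mki67: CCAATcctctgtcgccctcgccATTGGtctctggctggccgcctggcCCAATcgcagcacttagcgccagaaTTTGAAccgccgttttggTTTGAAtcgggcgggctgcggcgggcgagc
Top2a: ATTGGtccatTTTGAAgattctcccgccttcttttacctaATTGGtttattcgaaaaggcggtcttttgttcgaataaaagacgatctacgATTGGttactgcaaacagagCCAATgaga
Cdk1: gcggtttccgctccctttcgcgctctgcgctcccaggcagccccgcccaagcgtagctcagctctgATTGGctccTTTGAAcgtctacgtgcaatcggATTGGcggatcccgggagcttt
Plk1: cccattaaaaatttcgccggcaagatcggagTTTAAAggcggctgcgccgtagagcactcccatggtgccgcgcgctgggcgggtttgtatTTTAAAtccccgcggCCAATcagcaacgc
Cenpf: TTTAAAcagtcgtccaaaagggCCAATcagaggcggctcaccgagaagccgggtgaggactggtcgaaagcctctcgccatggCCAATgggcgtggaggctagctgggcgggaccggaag
Kif11: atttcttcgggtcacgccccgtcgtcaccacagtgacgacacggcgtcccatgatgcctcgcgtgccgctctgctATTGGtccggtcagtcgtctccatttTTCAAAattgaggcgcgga
Ccnb1: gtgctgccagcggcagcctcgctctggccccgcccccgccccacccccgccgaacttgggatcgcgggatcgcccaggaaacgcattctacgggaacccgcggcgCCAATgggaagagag
Bub1: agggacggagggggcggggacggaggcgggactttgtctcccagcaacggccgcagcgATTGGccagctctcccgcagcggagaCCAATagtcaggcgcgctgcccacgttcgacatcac
Birc5: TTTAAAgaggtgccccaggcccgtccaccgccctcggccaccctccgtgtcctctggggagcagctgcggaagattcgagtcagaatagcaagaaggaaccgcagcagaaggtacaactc
Mybl2: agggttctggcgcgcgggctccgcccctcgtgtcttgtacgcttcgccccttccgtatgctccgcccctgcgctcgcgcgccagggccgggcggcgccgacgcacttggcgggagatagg
The Mki67 stretch holds 2 CHR matches and 3 CCAAT matches. That of Plk1 holds 2 CHR matches and 1 CCAAT match, and that of Kif11 1 of each. Those of Top2a, Cdk1 and Cenpf hold 1 CHR match each, with 4 CCAAT matches in Top2a and 2 each in Cdk1 and Cenpf. Those of Ccnb1 and Bub1 hold 0 CHR matches, with 1 and 2 CCAAT matches. That of Birc5 holds 1 CHR match and 0 CCAAT matches, and that of Mybl2 holds 0 of either. The Ccnb1 window did hold a CHR match, outside the printed stretch. All 4 genes rose after injury too.

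Transection raised nearly the whole group in control nerve. Of the 54 mitosis genes 53 rose, against 24.4% of all models tested that rose in this comparison, and 0 fell, against 22.4% of all models. The median change was 5.18, with a range from 0.26 to 9.48, and the median over all tested models was 0.09. As a ratio of mean CPM the median rise was 36.0-fold. For all 54 genes every injured control library lay above every intact one, which was true of 27.8% of all models. A whole nerve was sequenced, so more dividing cells and more RNA per cell cannot be told apart.

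Mki67, the nuclear protein that coats chromosomes in mitosis and marks cycling cells (chromosome 7, 135689784 to 135716361, mm10), stood at 2.01, 1.69 and 1.58 CPM in the intact control libraries and at 204, 206 and 165 CPM at 5 days. Its change was 6.76 (SE 0.15, adjusted p = 5.52e-13). Top2a, the topoisomerase that untangles sister chromatids (chromosome 11, 98992943 to 99024189), went from 1.94, 3.35 and 2.49 CPM to 202, 211 and 162 CPM, a change of 6.21 (SE 0.34). Control replicate 4 was the lowest of the injured libraries for both genes and still lay far above every intact library.

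Among the cyclins and Cdk1 all 5 genes rose, with a median of 5.68. Cdk1, the kinase that drives entry into mitosis (chromosome 10, 69335146 to 69352938), had 0.987, 0.248 and 0.632 CPM in intact control nerve and 118, 110 and 96.9 CPM at 5 days, a change of 7.41 (SE 0.28, adjusted p = 1.15e-10). Ccnb1, cyclin B1, its mitotic partner (chromosome 13, 100778650 to 100786570), had 0.146, 0.0826 and 0.0702 CPM, which is 2 to 4 reads a library, and then 56.4, 33.5 and 32.4 CPM. Its change was 8.61 (SE 0.46). With 8 reads in all of the intact control nerve, the ratio of summed counts was 415, with a 95% Clopper-Pearson interval from 210 to 962 that covers counting error only. Cdc25c, the phosphatase that switches Cdk1 on, rose least of the 5, by 3.05 (SE 0.49).

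The kinases followed. All 5 rose, with a median of 4.65. Pbk, a kinase active in mitosis (chromosome 14, 65805837 to 65817822), showed the largest change of the 54, 9.48 (SE 0.29, adjusted p = 1.53e-11). It had 0.0731, 0.124 and 0.0702 CPM in intact control nerve, from 2 to 3 reads a library, and 72.1, 60.5 and 63.9 CPM at 5 days. From 7 intact reads in all, its ratio of summed counts was 750 (95% Clopper-Pearson interval 364 to 1867). Plk1, Polo-like kinase 1 (chromosome 7, 122159439 to 122169873), started higher, at 2.52, 3.68 and 1.62 CPM, and reached 71.6, 49.8 and 46.2 CPM, a change of 4.43 (SE 0.45). Aurkb, Aurora kinase B of the chromosomal passenger complex (chromosome 11, 69045647 to 69051664), went from 0.804, 0.207 and 0.246 CPM to 47.6, 35.3 and 30.6 CPM, a change of 6.47 (SE 0.44). Of the 4 passenger complex genes all rose, from 3.11 (SE 0.17) for Incenp to 6.47 for Aurkb, with Birc5, survivin (chromosome 11, 117849251 to 117855743), at 6.27 (SE 0.36).

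At the chromosome, both checkpoint genes and all 7 centromere and kinetochore genes rose. Bub1, a checkpoint kinase (chromosome 2, 127801122 to 127831865), had 0.292, 1.16 and 0.316 CPM in intact control nerve and 22.7, 20.7 and 16.5 CPM at 5 days, a change of 5.11 (SE 0.40). Cenpf, a kinetochore protein of late cell cycle (chromosome 1, 189640606 to 189688086), went from 0.548, 1.24 and 0.948 CPM to 82.0, 69.6 and 56.4 CPM, a change of 6.25 (SE 0.31). Cenpa, the histone that marks the centromere, rose by 3.58 (SE 0.23), the smallest change of the 7.

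On the spindle all 12 kinesin and assembly genes rose, with a median of 5.56. Kif11, the kinesin that pushes the poles apart (chromosome 19, 37376403 to 37421859), had 5.37, 3.02 and 3.44 CPM in intact control nerve and 64.6, 56.3 and 50.1 CPM at 5 days, a change of 3.85 (SE 0.20). Kif2c, which takes microtubules apart at the kinetochore, rose by 7.07 (SE 0.33), and Kif18b by 6.89 (SE 0.61). All 7 cytokinesis genes rose. The smallest change among them was that of Anln, 1.98 (SE 0.22, adjusted p = 8.38e-06), from 24.4, 41.4 and 22.6 CPM to 128, 122 and 96.6 CPM.

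Of the 6 genes of anaphase onset, cohesion and protein destruction 5 rose. Pttg1 (chromosome 11, 43420250 to 43426251) was the exception in the whole group. It had 36.4, 28.6 and 32.1 CPM in intact control nerve and 37.4, 40.4 and 38.4 CPM at 5 days, a difference of 0.26 (SE 0.13, adjusted p = 0.122). Its injured libraries all lay above its intact ones, by a margin that did not pass the test. Foxm1, the forkhead factor that drives mitotic genes (chromosome 6, 128362967 to 128376146), rose by 4.65 (SE 0.16), from 4.2, 4.42 and 3.79 CPM to 110, 113 and 87.5 CPM. Mybl2, B-Myb, a partner of MuvB (chromosome 2, 163054687 to 163084688), rose by 2.52 (SE 0.28), from 1.61, 2.44 and 2.32 CPM to 11.7, 13.6 and 11.1 CPM.

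**Figure D1:**
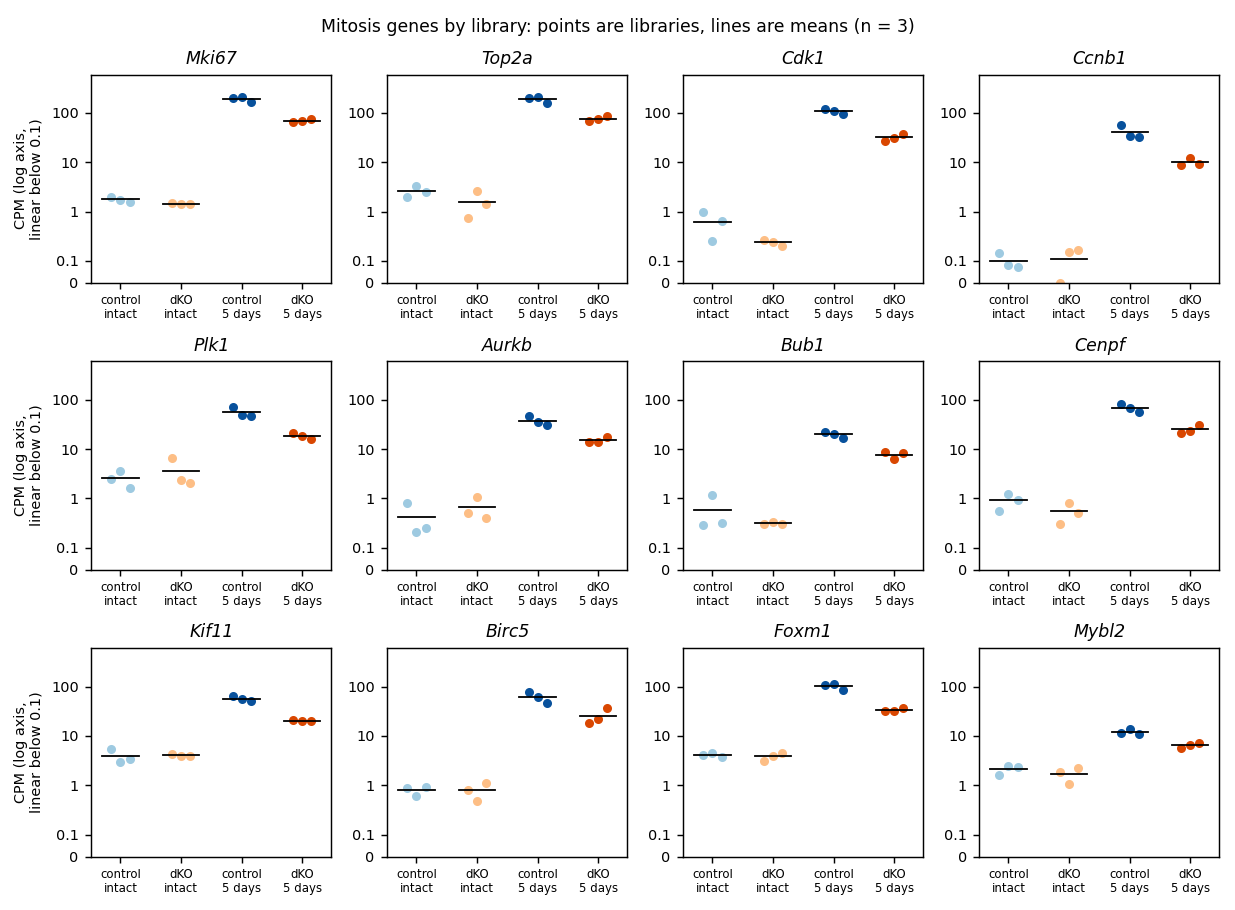
Level of the 12 mitosis genes followed throughout, in CPM on an axis that is logarithmic above 0.1 and linear below it, for each library (points) of the 4 groups, with the mean of the 3 libraries as a line. Injured libraries lie above intact ones in both genotypes, and the 3 injured dKO libraries lie below the 3 injured control libraries in all 12 panels.

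In dKO nerve transection raised the same 53 genes, and Pttg1 again did not pass the test (0.33, SE 0.13, adjusted p = 0.0572). In this comparison 22.0% of all models rose and 22.6% fell, and 0 of the 54 fell. The median change of the 54 was 3.94, with a range from 0.33 to 7.05, against 0.05 over all models. In 53 of the 54 genes injured and intact libraries did not overlap, which was true of 31.1% of all models in this direction. The median ratio of mean CPM was 15.4-fold, and the log2 change was smaller than in control nerve for 53 of the 54 genes, Pttg1 being the exception. The control and dKO comparisons share no libraries, and their difference is tested further on. Every injured dKO library was in the second library set and no intact one was. Within dKO nerve alone, injury and library set thus cannot be told apart. With the set as a term in the model, estimated from the injured control libraries, 51 genes rose in dKO nerve, with a median of 4.32. The median SE was 0.47, against 0.27 without the term. The change was then smaller than in control nerve for 51 genes.

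Mki67 went from 1.49, 1.40 and 1.39 CPM in intact dKO nerve to 64.4, 69.9 and 75.2 CPM, a change of 5.61 (SE 0.14, adjusted p = 1.53e-11). Top2a went from 0.727, 2.56 and 1.42 CPM to 67.0, 74.4 and 86.8 CPM, a change of 5.56 (SE 0.34). The largest change was that of Cdk1, 7.05 (SE 0.30), from 0.268, 0.244 and 0.204 CPM to 27.5, 31.3 and 37.4 CPM. Next were Cdca5, sororin, which protects cohesion (6.78, SE 0.49), and Fam64a, a late cell cycle gene (6.76, SE 0.37), both from intact levels under 1 CPM. Pbk rose by 6.74 (SE 0.26), from 0.306, 0.122 and 0.136 CPM to 18, 17.8 and 24.0 CPM, and Ccnb1 by 6.45 (SE 0.44), from 0, 0.152 and 0.170 CPM to 8.88, 12.4 and 9.30 CPM. In summed counts the ratio for Ccnb1 was 92.2 (95% Clopper-Pearson interval 49.9 to 193) from 10 intact reads, and that for Pbk was 106 (64.9 to 185) from 16.

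Among the kinases, Plk1 rose by 2.36 (SE 0.42), from 6.58, 2.38 and 2.04 CPM to 21.0, 18.7 and 16.1 CPM, with dKO replicate 2 the highest of the intact libraries. Aurkb rose by 4.5 (SE 0.40) and Bub1 by 4.59 (SE 0.42). Cenpf rose by 5.49 (SE 0.32), Birc5 by 5.00 (SE 0.35) and Kif11 by 2.35 (SE 0.19). Foxm1 rose by 3.11 (SE 0.16) and Mybl2 by 1.91 (SE 0.28). The smallest called change was that of Anln, 0.58 (SE 0.22, adjusted p = 0.0454), from 29.7, 26.9 and 27.3 CPM to 34.4, 38.7 and 52.3 CPM, with dKO replicate 4 well above the other two. Anln lost its call in 16 of 25 alternatives at the same threshold (adjusted p between 0.00594 and 0.186 over the 25), and Cdc25c lost its call in 1, with the library set as a term (adjusted p = 0.0548).

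**Figure D2:**
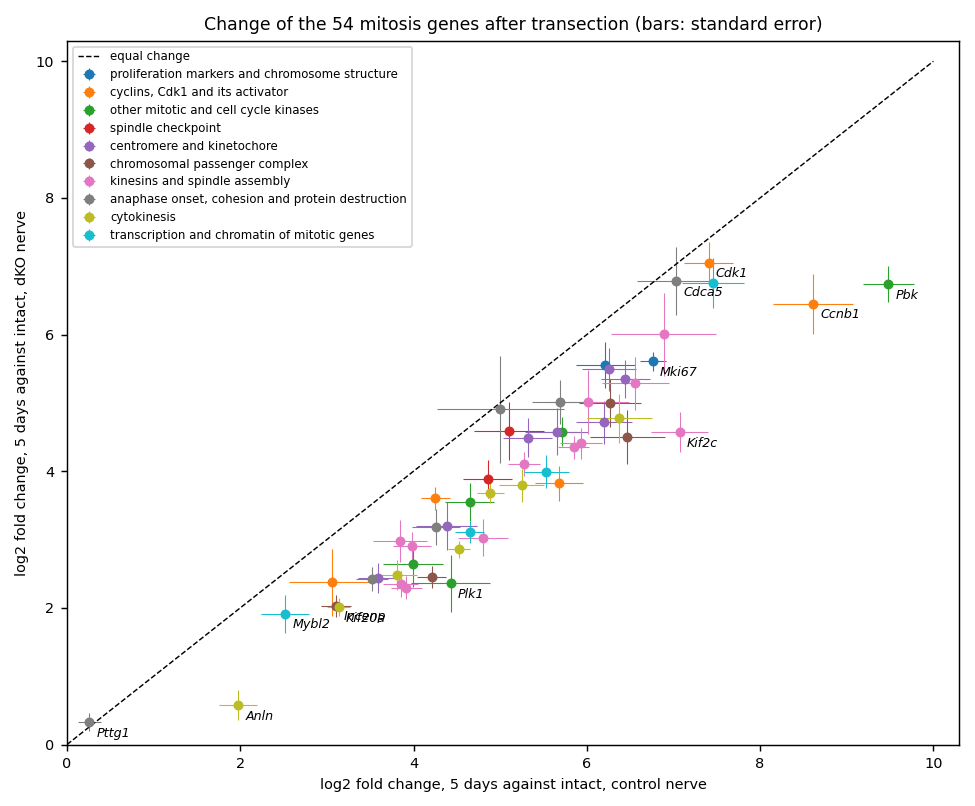
Log2 fold change from intact nerve to 5 days after transection for each of the 54 mitosis genes, in control nerve (horizontal axis) and dKO nerve (vertical axis), coloured by role, with standard errors as bars and equal change as a dashed line. All points but Pttg1 lie below the line, and Pbk (9.48 and 6.74) and Kif2c (7.07 and 4.57) lie farthest from it.

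Between the genotypes, intact nerve showed 0 mitosis genes past the threshold in either direction by edgeR's quasi-likelihood test, where 0.00447% of all models were lower and 0.0% higher in dKO nerve. It showed 4 lower and 0 higher at an unadjusted p under 0.05, where 2.52% of all models were lower and 3.29% higher. DESeq2 showed 1 lower, Pttg1, against 0.0179% of all models. The median difference of the 54 was -0.18, from -1.40 for Cdk1 (SE 0.41, adjusted p = 0.841) to 1.02 for Pbk (SE 0.49, adjusted p = 0.878), against -0.01 over all models. All 3 dKO libraries lay below all 3 control libraries for 5 of the 54 genes, namely Mki67, Ccna2, Spc25, Ckap2l and Pttg1, and such a gap was seen in 7.18% of all models. The smallest adjusted p belonged to Pttg1, with 36.4, 28.6 and 32.1 CPM in control against 21.7, 18.1 and 19.1 CPM in dKO nerve, a difference of -0.72 (SE 0.13, adjusted p = 0.254). By DESeq2 the difference of Pttg1 was -0.73 with an adjusted p of 0.000544, while the other alternatives tried left its adjusted p between 0.170 and 0.941. Ccna2, cyclin A2, differed by -0.66 (SE 0.17, adjusted p = 0.841). Cdk1 had 6 to 27 reads in the intact control libraries and 6 to 8 in the intact dKO libraries.

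At 5 days after transection the mitosis genes were lower in dKO nerve nearly throughout. In dKO nerve 50 of the 54 mitosis genes were lower than in control nerve and 0 were higher, against 8.97% of all models lower and 3.12% higher. The median difference was -1.43, from -2.00 for Ccnb1 to -0.65 for Pttg1, and the median over all models was -0.02. For all 54 genes every dKO library lay below every control library, a gap seen in 17.9% of all models. Summed over the 54 genes, the injured control libraries held 3805, 3590 and 2925 CPM and the injured dKO libraries 1199, 1267 and 1453 CPM, so that the dKO mean was 38% of the control mean. For single genes this share ran from 25.0% to 63.7%, with a median of 37.1%, and it lay between 30% and 45% for 44 of the 54. In 3 genes it was under 30% and in 7 over 45%.

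Mki67 had 204, 206 and 165 CPM in control against 64.4, 69.9 and 75.2 CPM in dKO nerve at 5 days, a difference of -1.46 (SE 0.11, adjusted p = 1.68e-06). Top2a, with 202, 211 and 162 CPM against 67.0, 74.4 and 86.8 CPM, differed by -1.33 (SE 0.26, adjusted p = 0.00721). Both genes were highest in dKO replicate 4 among the dKO libraries and lowest in control replicate 4 among the control libraries, and the groups stayed apart.

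Of the cyclins and Cdk1 4 of 5 were lower. The largest difference of the 54 was that of Ccnb1, with 56.4, 33.5 and 32.4 CPM in control against 8.88, 12.4 and 9.30 CPM in dKO nerve, a difference of -2.00 (SE 0.29, adjusted p = 0.000467), so that dKO nerve held 25.0% of the control level. Control replicate 1 was the highest control library for this gene, and the other two lay close together. Cdk1 had 118, 110 and 96.9 CPM against 27.5, 31.3 and 37.4 CPM, a difference of -1.76 (SE 0.20, adjusted p = 7.28e-05). Ccnb2, cyclin B2, differed by -1.48 (SE 0.22), and Ccna2 by -1.31 (SE 0.15). Cdc25c, with 15, 18.4 and 13.1 CPM against 6.01, 6.5 and 6.93 CPM, did not overlap between groups and did not pass the test (-1.26, SE 0.45, adjusted p = 0.0869).

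All 5 of the other kinases were lower, with a median of -1.61. Pbk had 72.1, 60.5 and 63.9 CPM in control against 18, 17.8 and 24.0 CPM in dKO nerve, a difference of -1.72 (SE 0.17, adjusted p = 2.53e-05). Plk1 had 71.6, 49.8 and 46.2 CPM against 21.0, 18.7 and 16.1 CPM, a difference of -1.58 (SE 0.39, adjusted p = 0.0241). Control replicate 1 was the highest and control replicate 4 the lowest of its control libraries, and the groups did not overlap. Melk, a kinase of proliferating cells, differed by -1.61 (SE 0.16), and Ttk, the checkpoint kinase Mps1, by -1.62 (SE 0.30). Aurka, the Aurora kinase of the spindle poles, differed by -1.38 (SE 0.24).

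The 2 checkpoint genes and all 7 kinetochore genes were lower. Bub1 had 22.7, 20.7 and 16.5 CPM in control against 8.63, 6.28 and 8.26 CPM in dKO nerve, a difference of -1.37 (SE 0.32, adjusted p = 0.0134). Cenpf had 82.0, 69.6 and 56.4 CPM against 21.3, 23.7 and 31.1 CPM, a difference of -1.45 (SE 0.24, adjusted p = 0.00141). Cenpe, the kinesin-like motor of the kinetochore, had the second largest difference of all 54 genes, -1.87 (SE 0.31, adjusted p = 0.00126), from 33.4, 34.8 and 25.3 CPM in control to 7.0, 9.80 and 8.78 CPM in dKO nerve. Within the Ndc80 complex, the microtubule-binding part of the kinetochore, the 4 subunits ran from -1.69 (SE 0.24) for Ndc80 and -1.56 (SE 0.21) for Nuf2 to -1.39 (SE 0.22) for Spc25 and -1.16 (SE 0.28) for Spc24.

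The 4 passenger complex genes were lower, from -1.45 (SE 0.15) for Cdca8, borealin, to -1.16 (SE 0.16) for Incenp. Aurkb had 47.6, 35.3 and 30.6 CPM against 14.0, 14.1 and 17.6 CPM, a difference of -1.32 (SE 0.32, adjusted p = 0.0167). Birc5 had 79.6, 61.3 and 47.2 CPM in control against 18.7, 21.9 and 36.7 CPM in dKO nerve, a difference of -1.29 (SE 0.27, adjusted p = 0.00773). For Birc5 the groups were closest between replicate 4 of dKO nerve and replicate 4 of control nerve.

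Of the 12 kinesin and spindle genes 10 were lower. Kif11 had 64.6, 56.3 and 50.1 CPM against 21.3, 20.0 and 20.5 CPM, a difference of -1.47 (SE 0.18, adjusted p = 9.62e-05). Kif2c differed by -1.67 (SE 0.23), Dlgap5, a stabiliser of kinetochore fibres, by -1.66 (SE 0.14) and Tpx2, which recruits Aurora A to the spindle, by -1.64 (SE 0.19). Kif18b (-1.21, SE 0.43, adjusted p = 0.0913) and Aspm, a protein of the spindle poles (-1.08, SE 0.36, adjusted p = 0.0743), did not pass the test, though their groups did not overlap.

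Of the 6 genes of anaphase onset, cohesion and protein destruction 5 were lower, with a median of -1.06 and differences from -1.61 (SE 0.31, adjusted p = 0.00395) for Cdca5 to -0.65 for Pttg1. Pttg1 had 37.4, 40.4 and 38.4 CPM in control against 24.6, 21.5 and 27.9 CPM in dKO nerve, a difference of -0.65 (SE 0.13, adjusted p = 0.00497), the smallest difference of the 54. Cdc20, the activator of the anaphase promoting complex, had 70.5, 71.6 and 79.3 CPM against 37.2, 39.0 and 43.8 CPM, -0.88 (SE 0.24, adjusted p = 0.0276). Espl1, separase, differed by -0.96 (SE 0.16, adjusted p = 0.00154). Ube2c, the ubiquitin-conjugating enzyme of that complex, had 62.0, 59.7 and 49.0 CPM against 20.3, 19.5 and 24.6 CPM, with no overlap, and did not pass the test (-1.41, SE 0.61, adjusted p = 0.174).

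All 7 cytokinesis genes and all 4 genes of mitotic transcription and chromatin were lower. Racgap1, a part of centralspindlin, had the smallest adjusted p of the 54 genes, with 117, 134 and 112 CPM in control against 37.2, 40.0 and 42.3 CPM in dKO nerve, a difference of -1.61 (SE 0.11, adjusted p = 8.79e-07). Anln had 128, 122 and 96.6 CPM against 34.4, 38.7 and 52.3 CPM, -1.47 (SE 0.22, adjusted p = 0.000821), after mean levels of 29.5 and 28.0 CPM in intact nerve. Foxm1 had 110, 113 and 87.5 CPM against 32.7, 32.3 and 36.3 CPM, -1.62 (SE 0.14, adjusted p = 6.4e-06). Mybl2 had 11.7, 13.6 and 11.1 CPM against 5.68, 6.66 and 7.04 CPM, -0.91 (SE 0.26, adjusted p = 0.0358).

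**Figure D3:**
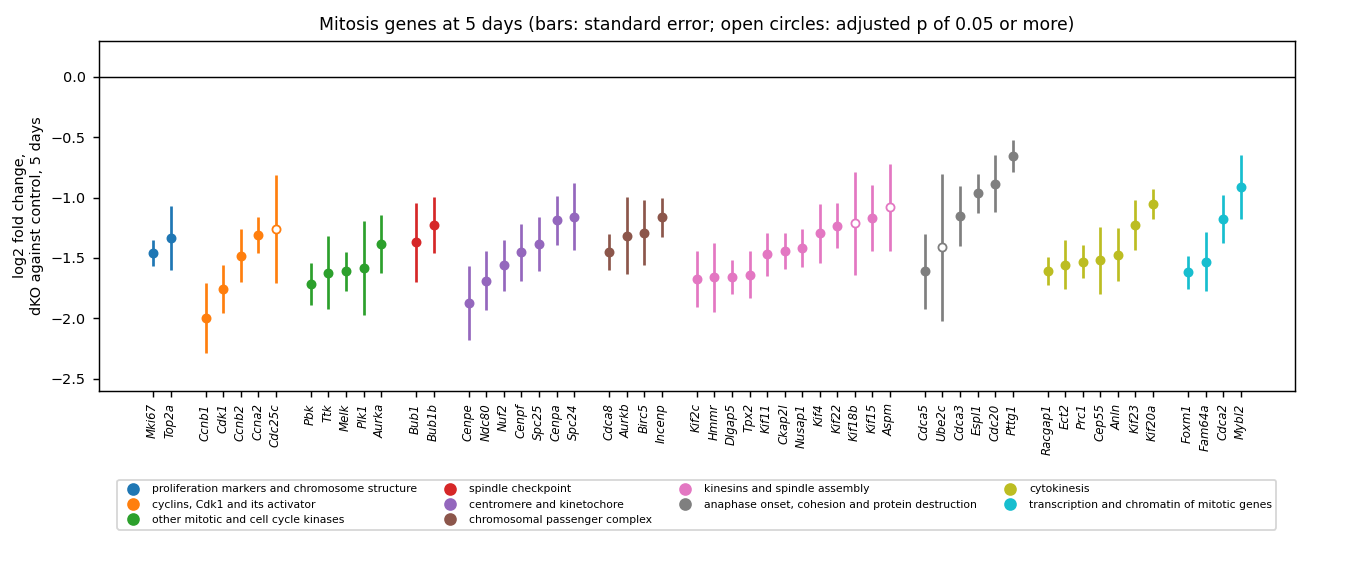
Log2 fold change of dKO against control nerve at 5 days after transection for the 54 mitosis genes, grouped and coloured by role, with standard errors as bars. Filled circles had an adjusted p under 0.05 and open circles did not, and every gene lies below 0, from -2.00 (Ccnb1) to -0.65 (Pttg1).

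The second library set bears on this comparison, because it holds 1 control library and all 3 dKO libraries at 5 days. It bears on the rise in dKO nerve too, because no intact dKO library was in it. Control replicate 4, the control library in that set, was the lowest of its group for 49 of the 54 genes, and dKO replicate 4 was the highest of its group for 40. Because the groups did not overlap, control replicate 4 also lay above all 3 dKO libraries for 54 of 54 genes. That pattern was seen in 30.2% of all models. The mean dKO level was 30.4% to 64.2% of that in control replicate 4, with a median of 45.2%. Using only the second set at 5 days, with that library assumed to vary like the others, 18 of the 54 were lower and 0 higher, with a median of -1.15, against 1.63% of all models lower and 0.791% higher. With the set as a term in the model 22 were lower, again with a median of -1.15, against 1.65% of all models. Among those 18 were Racgap1 (-1.49, SE 0.15, adjusted p = 0.000345), Mki67 (-1.24, SE 0.13, adjusted p = 0.000552), Foxm1 (-1.37, SE 0.18, adjusted p = 0.00231), Cdk1 (-1.60, SE 0.30, adjusted p = 0.017), Kif11 (-1.28, SE 0.24, adjusted p = 0.017) and Ccnb1 (-1.67, SE 0.37, adjusted p = 0.0414). The other 32 of the 50 lost their call with only the second set. Of the 12 genes followed throughout these were 7, namely Top2a, Plk1, Aurkb, Bub1, Cenpf, Birc5 and Mybl2, with differences from -1.31 to -0.78 and adjusted p between 0.128 and 0.380, and none of the 7 passed with the set as a term. The library read as female was control replicate 1, and without it 45 were lower, with a median of -1.34, against 5.63% of all models.

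**Figure D4:**
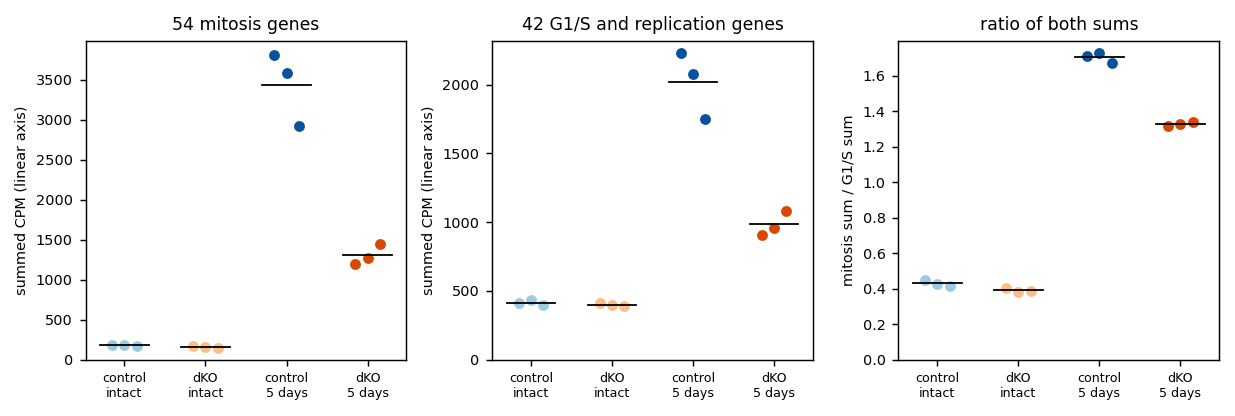
Summed CPM of the 54 mitosis genes (left), summed CPM of 42 G1/S and DNA replication genes (middle) and the ratio of both sums (right), on linear axes from 0, for each library (points) with group means (lines). In the right panel the 3 injured dKO libraries lie between 1.32 and 1.34 and the 3 injured control libraries between 1.67 and 1.73.

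The injury changes themselves differed between genotypes for part of the group. In the test of that difference 22 of the 54 genes were lower, meaning a smaller rise in dKO than in control nerve, and 0 were higher, against 2.17% and 0.737% of all models. The median difference was -1.15, against -0.03 over all models. The largest was that of Pbk, -2.74 (SE 0.52, adjusted p = 0.0101), followed by Kif2c, -2.50 (SE 0.45, adjusted p = 0.00689), and Ccnb1, -2.16, which did not pass the test (SE 0.84, adjusted p = 0.215). By role, 6 of 7 cytokinesis genes, 7 of 12 spindle genes and 2 of 4 passenger complex genes passed. Among the 2 checkpoint and 7 kinetochore genes 0 did by edgeR's quasi-likelihood test, where 1 and 6 had an unadjusted p under 0.05 (10.7% of all models were lower by that measure) and DESeq2 called 0 and 2 (3.18% of all models). Racgap1 had the smallest adjusted p, -1.67 (SE 0.17, adjusted p = 7.14e-05).

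Of the genes followed throughout, Mki67 (-1.15, SE 0.19, adjusted p = 0.00408), Kif11 (-1.50, SE 0.26, adjusted p = 0.00521) and Foxm1 (-1.54, SE 0.21, adjusted p = 0.00101) passed this test. Plk1 (-2.07, SE 0.58, adjusted p = 0.0985) and Aurkb (-1.97, SE 0.58, adjusted p = 0.0988) had larger differences with larger errors and did not. Birc5 (-1.27, SE 0.48), Cenpf (-0.76, SE 0.44), Top2a (-0.65, SE 0.44), Mybl2 (-0.60, SE 0.39), Bub1 (-0.52, SE 0.59) and Cdk1 (-0.36, SE 0.49) did not pass either, with adjusted p between 0.207 and 0.799. The largest errors were those of Ube2c (-0.10, SE 1.08) and Cdca5 (-0.25, SE 1.03). Pttg1 was the 1 gene above 0 (0.07, SE 0.19, adjusted p = 0.912). The count of 22 was 7 when the model held the library set (0.433% of all models), 6 with only the second set at 5 days (0.429%), 8 with limma-voom (1.78%) and 12 without dKO intact replicate 2 (1.14%).

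Per kilobase of exon, most genes at the top of the group were the same in both genotypes after injury, and the order below was not compared. In injured control nerve Ccnb2 (39.5 ± 13.7 CPM per kb, SD, n = 3), Cdc20 (39.5 ± 2.57), Pbk (36.6 ± 3.31), Fam64a (29.8 ± 5.61) and Kif20a (29.4 ± 5.45) stood at the top, and the ranges of 1 SD around neighbours in this order overlapped. In injured dKO nerve the top 5 were Cdc20 (21.4 ± 1.81), Ccnb2 (14.2 ± 0.62), Kif20a (14.1 ± 0.42), Pttg1 (12.3 ± 1.61) and Pbk (11.1 ± 1.98), so that 4 of the 5 were shared. The range of Cdc20 lay apart from that of Ccnb2, and the ranges of the neighbours below it overlapped. Pttg1 was first of 54 in intact control nerve, 16th in injured control nerve and 4th in injured dKO nerve. The median over the 54 genes was 12.9 CPM per kb in injured control nerve and 4.73 in injured dKO nerve.

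Other genes of cell division were compared from lists that hold no mitosis gene of the 54. Beside them, 24.4% of all models rose and 22.4% fell in control nerve. In dKO nerve 22.0% rose and 22.6% fell, and 8.97% were lower in dKO than in control nerve at 5 days. Of 69 further cell cycle regulated mitotic genes 65 rose and 1 fell after injury in control nerve (median 3.24), 60 rose and 4 fell in dKO nerve (median 2.33), and 58 were lower in dKO than in control nerve at 5 days (median -1.16). Of 42 genes of G1/S and DNA replication 41 rose in control nerve (median 2.68), 38 rose and 1 fell in dKO nerve (median 1.5), and 37 were lower in dKO nerve at 5 days (median -1.02). Rrm2, a subunit of ribonucleotide reductase, differed by -1.80 (SE 0.20) there, Cdc45, a part of the replicative helicase, by -1.39 (SE 0.16) and Mcm5, another part, by -1.08 (SE 0.14). The sum of the 54 mitosis genes divided by the sum of these 42 was 0.417 to 0.447 in intact control and 0.383 to 0.406 in intact dKO nerve, 1.67 to 1.73 in injured control and 1.32 to 1.34 in injured dKO nerve. An exact permutation test of such a ratio in 3 libraries against 3 cannot go below a p of 0.1, so none was made.

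Genes of the anaphase promoting complex, of cohesin and of the regulators of cell cycle entry and of mitotic transcription were counted in the same way. Of all models, 24.4% rose and 22.4% fell in control nerve and 22.0% rose and 22.6% fell in dKO nerve. At 5 days 8.97% of all models were lower in dKO nerve and 3.12% higher. Several counts of these small lists lay near such shares. Of 15 subunits and activators of the anaphase promoting complex 7 rose and 0 fell after injury in control nerve (median 0.30), 4 rose and 5 fell in dKO nerve (median -0.12), and 5 were lower in dKO nerve at 5 days (median -0.30). Of 10 cohesin genes 1 was lower at 5 days (median -0.10), Rad21 at -0.67 (SE 0.11, adjusted p = 0.00141). Of 15 genes of D cyclins, CDK inhibitors and pocket proteins 4 were lower (median 0.03). Among these was Ccnd1, cyclin D1, with mean levels of 826 CPM in control against 513 CPM in dKO nerve (-0.69, SE 0.12). By DESeq2 4 of the 15 were lower and 1 higher, and at an unadjusted p under 0.05 by edgeR 4 were lower and 3 higher. Of 9 DREAM and MuvB genes, the complexes that act at the CHR, 4 were lower (median -0.43), and Lin54, its CHR-binding subunit, differed by -0.69 (SE 0.15, adjusted p = 0.00911).

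**Figure D5:**
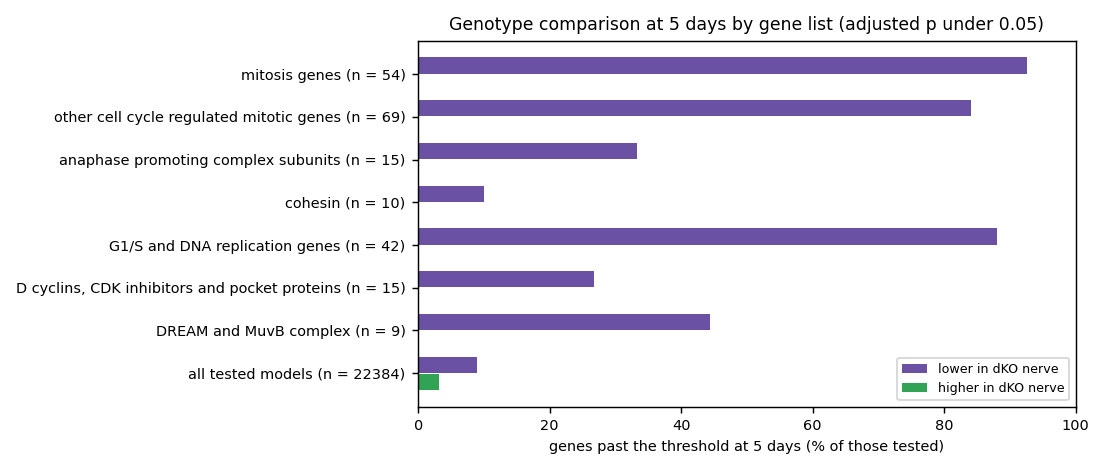
Share of each gene list, in percent of the genes tested, that was lower (violet) or higher (green) in dKO than in control nerve at 5 days at an adjusted p under 0.05, beside the same for all 22384 models. The bar of the mitosis genes stands for 50 of 54 and that of all models for 8.97% lower and 3.12% higher.

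Markers of cell types were read in the same libraries, and their part in the mitosis results was not tested. Of all models 8.97% were lower and 3.12% higher in dKO nerve at 5 days by edgeR's quasi-likelihood test. At 5 days the 8 Schwann cell markers summed to between 3195 and 4629 CPM in control nerve and between 3692 and 4375 CPM in dKO nerve, with 2 higher and 4 lower in dKO nerve (median -0.51). Ngfr, a receptor of repair Schwann cells, was lower (-1.67, SE 0.17). The 10 macrophage markers summed to between 1451 and 2390 CPM in control nerve and between 1387 and 1934 CPM in dKO nerve, with 1 lower, Cd68 (-0.87, SE 0.25). The 8 fibroblast markers summed to between 6012 and 9413 CPM and between 10201 and 11763 CPM, with 1 higher, Col1a1 (0.56, SE 0.14), and the 7 endothelial markers to between 467 and 535 CPM and between 628 and 863 CPM. None of the endothelial markers passed edgeR's quasi-likelihood test, with 4 of 7 higher at an unadjusted p under 0.05 and 3 by DESeq2. T and NK cell markers summed to between 6.0 and 8.5 CPM in control nerve and between 8.69 and 10.2 CPM in dKO nerve, with 1 of 8 higher, Cd8a (4.38, SE 1.25, adjusted p = 0.0346), which was at 0 in 2 of the 3 control libraries. The 6 pericyte and vessel wall markers summed to between 498 and 676 CPM in control nerve and to 2374, 520 and 827 CPM in dKO replicates 2, 3 and 4, so that replicate 2 stood apart. None of them passed edgeR's quasi-likelihood test, with 3 higher at an unadjusted p under 0.05 and 2 by DESeq2. Perineurial markers summed to between 951 and 1103 CPM in control nerve and between 1006 and 1107 CPM in dKO nerve, mast cell markers to between 79.2 and 171 CPM and between 80.8 and 108 CPM, and fat cell markers to between 1963 and 3263 CPM and between 3088 and 4153 CPM. None of these 3 lists held a marker that passed by edgeR, at an unadjusted p under 0.05 or by DESeq2. Muscle markers summed to between 6.01 and 9.93 CPM in control nerve and between 9.58 and 44.1 CPM in dKO nerve, and red cell markers to between 177 and 7965 CPM in control nerve, highest in replicate 1, and between 278 and 1222 CPM in dKO nerve. B cell markers summed to at most 20.5 CPM and neutrophil markers to at most 17.2 CPM in any library. No marker gene found in the table was at 0 in every library.

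For 14 of the 54 genes an exon of another gene overlaps in GENCODE M21, and the strand used in counting was not given in the sources used here, so reads of both genes cannot be told apart. Ube2c overlaps Tnnc2, a troponin of fast muscle, on the opposite strand. Ube2c stood at 4.39, 0.620 and 0.281 CPM in intact control nerve and Tnnc2 at 3.88, 0.165 and 0.105 CPM, both highest in replicate 1. Cdc25c overlaps Gm3550, and in intact nerve their counts were nearly alike. Cdc25c had 75, 27 and 49 reads in control and 53, 9 and 44 in dKO nerve. Gm3550 had 72, 24 and 44 reads in control and 50, 8 and 41 in dKO nerve. The intact level of Cdc25c, and its rise from there, may thus include reads of Gm3550. After injury Cdc25c stood at 13.1 to 18.4 CPM in control nerve, where Gm3550 had 1.75, 2.70 and 1.97 CPM. Kif20a overlaps Cdc23, a subunit of the anaphase promoting complex, which stood at 64.2, 65.1 and 57.3 CPM in intact control nerve. At 5 days Cdc23 had 119, 99.3 and 82.7 CPM in control against 67.3, 67.4 and 63.3 CPM in dKO nerve. The levels of Kif20a in intact and injured nerve, and its differences, may thus include reads of Cdc23. Ccna2 overlaps Exosc9. At 5 days Exosc9 had 84.8, 60.5 and 54 CPM in control against 35.0, 34.1 and 40.2 CPM in dKO nerve, so it was lower beside Ccna2 in every dKO library.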

How the data were processed

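Deposited values were used as the authors left them. The counts are whole reads per gene model in a table deposited by the authors, and the second deposited table holds a signal, those counts divided by 1 size factor per library, since the ratio of both tables varied by at most 0.124% within a library. Per the submitters' processing notes DESeq2 and R 4.2.1 were used on build mm10. No aligner, annotation release or counting strand is named in the sources used here.

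The members and all gene lists were chosen with earlier results of these data known. The test was edgeR 4.0.16 (R 4.3.3). Gene models passing filterByExpr (minimum count 10) were scaled by TMM and fitted in 1 robust quasi-likelihood model of the 4 groups, with Benjamini-Hochberg adjustment within each of 5 comparisons. Sequences came from RefSeq windows (GRCm38.p6), positions and exon lengths from GENCODE M21 by symbol. Genes named in each comparison were 12 fixed mitosis genes, the 3 largest and 3 smallest changes, and, from other lists, up to 3 genes with the smallest p. In the genotype comparison of intact nerve only part of these genes was given with its change. Others of the 54 were named as examples of their role after their values were seen. Alternatives were DESeq2 1.42.0, limma 3.58.1 (voom, and trend on log2 of the signal plus 1), other scalings, filters and thresholds, a replicate block, the library set, sex, and leaving out each library. The steps were tested on simulated data. Correlations of deviations between libraries of 1 genotype with the same replicate number ran from -0.0895 to 0.118. With 3 libraries a group, such values cannot show whether intact and injured nerve came from the same mice. The main model treated all libraries as independent.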

Additional observations from a re-analysis of the deposited data

Results flagged for a closer look

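In 22 of the 54 mitosis genes the injury change itself differed between control and dKO nerve by edgeR's quasi-likelihood test of the difference, with a smaller rise in dKO nerve in each. In this test 2.17% of all models were lower. The count was 7 with the library set as a term, 6 with only the second set at 5 days, 8 with limma-voom and 12 without dKO intact replicate 2. On the log2 scale the differences were -1.15 for Mki67, -1.86 for Ccnb2, -1.13 for Melk and -2.74 for Pbk. They were -1.08 for Incenp and -1.75 for Cdca8 of the passenger complex. Among spindle genes they were -1.50 for Kif11, -2.50 for Kif2c, -1.78 for Kif4, -1.62 for Nusap1, -1.52 for Tpx2, -1.50 for Dlgap5 and -1.17 for Ckap2l. Espl1 stood at -1.10. In cytokinesis they were -1.20 for Prc1, -1.34 for Ect2, -1.40 for Anln, -1.67 for Racgap1, -1.13 for Kif20a and -1.46 for Kif23. Foxm1 and Cdca2 stood at -1.54 each. Leaving out each library in turn, between 12 and 25 genes passed.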

How the results depend on the processing

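At 5 days all 54 mitosis genes stayed below 0 in dKO against control nerve under every alternative fitted, and 0 were higher. With the library set as a term, 22 were lower there (median -1.15), the median rise in dKO nerve was 4.32, and 7 genes passed in the difference of injury changes. With only second-set libraries at 5 days these numbers were 18 (median -1.15) and 6, and the median rise in control nerve was 4.87. Both rest on control replicate 4 at 5 days. In the difference of injury changes 8 genes passed with limma-voom, 11 at a threshold of 0.01 and 28 with DESeq2, and in intact nerve DESeq2 called 1 gene lower. The causes were not tested. Upper-quartile scaling moved the median of all models by 0.11 at 5 days, 0.14 for injury in dKO nerve and 0.13 for the difference, with 48 mitosis genes still lower at 5 days.

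Leaving out each library in turn, 43 to 52 genes were lower at 5 days (medians -1.54 to -1.34), 12 to 25 in the difference (-1.25 to -1.07) and 0 in intact nerve (-0.32 to -0.10), and 53 rose in control nerve (5.06 to 5.32) and 52 to 53 in dKO nerve (3.88 to 4.05). Under the other alternatives between 51, with the set term, and 54 rose in dKO nerve. In the difference 12 passed without dKO intact replicate 2, and 14 and 13 without dKO replicates 2 and 3 at 5 days.

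With the replicate number as a block, 43 genes were lower at 5 days (median -1.37) and 15 in the difference, and with a replicate block within genotype 10 were. Of the 54 genes, 53 rose in control nerve with either block. Whether the numbers pair the libraries could not be settled from the correlations of their deviations. Control replicate 4 and dKO replicate 4 at 5 days correlated at -0.213 in their deviations.

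In intact nerve changes of sign were listed for part of the 54 genes only. Among these, 8 uncalled differences changed sign, and in the difference of injury changes 4 did. Over all 54 genes, the number above 0 in intact nerve was 17 in the main model. It was 23 without control intact replicate 1 and 22 with the replicate block, so more genes than those listed changed sign. In intact nerve Ccnb1 turned to -0.37 with limma-voom and -0.25 with limma-trend, and Birc5 to 0.012 with the replicate block. In the difference Ube2c turned to 0.030 with upper-quartile factors and 0.118 both with the set term and with only the second set, and Cdca5 to 0.014 and 0.012 with the latter settings. Leaving out each library in turn, intact differences ran from -0.24 to 0.66 for Ccnb1, from -0.24 to 0.82 for Plk1, from -1.18 to 0.067 for Bub1, from -0.11 to 0.32 for Kif11, from -0.35 to 0.26 for Birc5, from -0.22 to 0.049 for Foxm1, from -1.83 to 0.69 for Ube2c and from -0.23 to 0.27 for Anln. In the difference they ran from -0.84 to 0.019 for Cdk1, from -0.72 to 0.31 for Cdca5, from -2.09 to 0.42 for Ube2c and from -0.026 to 0.19 for Pttg1.

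With the longest transcript in place of all exons, the median level per length was 18.1 and 6.67 CPM per kb at 5 days in control and dKO nerve, and 0.466 and 0.361 in intact nerve. Many intact levels rest on few reads, which limits what was detectable there.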
